A study of Homo sapiens with 23 samples.

Results

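The 9 genes described here, which build, break down and regulate glycogen, were followed through the differentiation of human embryonic stem cells into cardiomyocytes. They were taken by name from the 57477 gene rows of the raw count matrix after its Ensembl identifiers had been matched to GENCODE symbols, and all 9 of 9 were found and passed the filter on low counts. The cells were H1-hESC, an established human embryonic stem cell line, wild type at every time point. The course thus followed 1 line with no second genotype and no separately treated arm. Total RNA was taken at 8 time points of directed differentiation (days 0, 1 and 3, then days 5 and 7, then days 10, 14 and 28), with 3 libraries per day and 2 at day 10, 23 in all. Per the labels, day 0 was the stem cell stage, days 5 and 7 were cardiac progenitors and days 10, 14 and 28 were cardiomyocytes kept in RPMI medium with insulin. Where culture conditions changed with the day, their part and that of the stage cannot be told apart. Nothing in the labels says that the libraries of a day came from separate cultures, so the p-values below measure the spread between these libraries, which may be technical. As these are bulk libraries, fewer cells of a type and less RNA per cell cannot be told apart.

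Glycogen is a branched polymer of glucose that heart and skeletal muscle keep as a local fuel store. Its synthesis starts from UDP-glucose, made by UGP2. GYG1 (glycogenin) primes a new particle by attaching glucose to itself, GYS1 (the muscle-type glycogen synthase) lengthens the chains, and GBE1 puts in the branches. Breakdown is carried out by glycogen phosphorylase, which exists as isozymes named after muscle (PYGM), liver (PYGL) and brain (PYGB) and is switched on by phosphorylase kinase, of which PHKA1 is the muscle-type alpha regulatory subunit. PPP1R3A is the muscle-type subunit that brings protein phosphatase 1 to glycogen, where the phosphatase activates the synthase and inactivates the phosphorylase. Adult heart is known for PYGM and PYGB, and fetal heart for large glycogen stores.

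Counted reads per library ranged from 4330334 (day 5 replicate 3) to 22089595 (day 0 replicate 2). Levels are given as CPM, a library's counts scaled to a fixed sum, with sizes set by edgeR's trimmed mean of M-values, and are set against each other between genes only per kilobase of annotated exon. The labelled cell types were checked on markers. The summed level of 10 cardiomyocyte markers was 58.3 to 60.5 CPM at day 0, 1703 to 2994 CPM at day 5 and 31415 to 44569 CPM at day 28. The summed level of 8 pluripotency markers was 5108 to 5369 CPM at day 0 and 2.70 to 3.03 CPM at day 28. Day 5 was the least even day, with correlations between its libraries of 0.907 to 0.956, against 0.968 to 0.993 on the other days.

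Between the ends of the course, 8 of the 9 genes rose and none fell at day 28 against day 0. A call here means an adjusted p under 0.05 in edgeR's quasi-likelihood test with Benjamini-Hochberg adjustment over all 22245 genes tested. In this comparison 60.5% of all genes were called, 32.1% higher and 28.4% lower. UGP2 was the gene that was not called. The median log2 change of the 9 genes was 2.59, against 0.0868 over all genes tested. Setting PPP1R3A at its counting bound could not move this median, because its change stayed the largest of the 9. At day 28, ordered by level per kilobase, PYGB had 171 ± 17.0 CPM per kb, UGP2 114 ± 2.57, GBE1 61.8 ± 7.94, GYS1 38.0 ± 2.92, PPP1R3A 36.8 ± 0.559, PYGL 35.0 ± 7.05, GYG1 28.9 ± 0.723, PYGM 21.8 ± 6.17 and PHKA1 5.03 ± 0.658 CPM per kb (SD, n = 3 each). At day 0 the order was led by UGP2 at 138 ± 8.66 CPM per kb, followed by PYGB at 25.8 ± 1.23, GYS1 at 10.2 ± 0.872 and PYGL at 9.93 ± 0.185 CPM per kb, and the other 5 genes were at or below 4.88 CPM per kb. By the length of the longest annotated transcript PYGL stood above GYS1 on both days (56.8 ± 11.4 and 45.1 ± 3.47 CPM per kb on day 28, 16.1 ± 0.301 and 12.1 ± 1.04 on day 0).

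**Figure D1:**
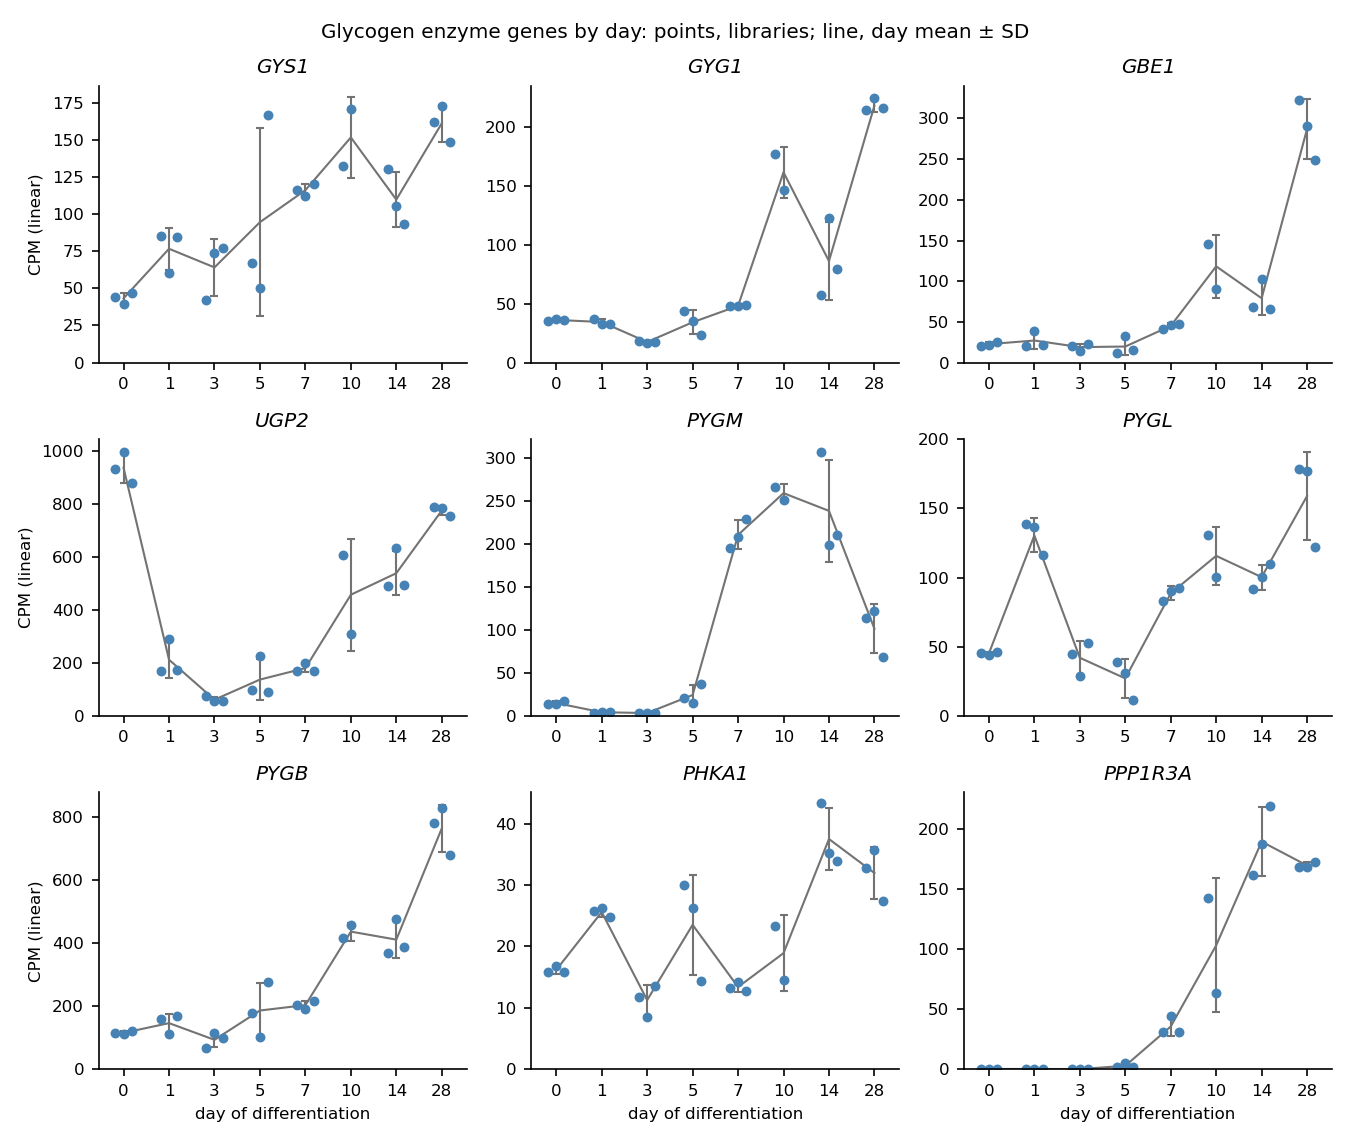
CPM of each gene (y axes, linear, each with its own scale) against day of differentiation (x axes, days evenly spaced); points are libraries, lines join day means and bars are SD. UGP2 starts at 937 CPM and dips to 61.2 CPM at day 3, PYGM peaks at 259 CPM at day 10, and PPP1R3A is near 0 CPM up to day 3.

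UGP2, which supplies the glucose donor (chr2:63840952-63891562 on GRCh38, plus strand), was high in the stem cells, lowest at day 3 and high again in the cardiomyocytes. Its libraries had 932, 998 and 880.2 CPM at day 0, 171, 290.1 and 175 CPM at day 1, and 73.5, 54.9 and 55.1 CPM at day 3. They then had 95.9, 225 and 90.4 CPM at day 5, 171, 199 and 171 CPM at day 7, 608 and 308 CPM at day 10, 489, 634 and 494 CPM at day 14, and 787, 784 and 756 CPM at day 28. The libraries of day 3 lay below those of every other day, and those of day 0 above those of every other day. UGP2 fell at day 1 against day 0 by 2.14 on the log2 scale (SE 0.31, edgeR adjusted p = 1.34e-05) and at day 3 against day 1 by 1.79 (SE 0.31, edgeR adjusted p = 6.55e-05), both with no overlap between libraries. It rose at day 5 against day 3 by 1.17 on the log2 scale (edgeR adjusted p = 0.00785), a call that was lost without day 5 replicate 2 (0.48, adjusted p = 0.152) and with only the libraries of the 2 days in the fit (adjusted p = 0.205). A further rise at day 10 against day 7 (1.34, edgeR adjusted p = 0.0128) was lost without day 10 replicate 1, day 7 replicate 1 or day 7 replicate 3 (adjusted p of 0.490, 0.0627 and 0.0719). Without day 5 replicate 2 a rise at day 7 against day 5 was gained (1.06, edgeR adjusted p = 0.00702). At day 28 UGP2 averaged 776 ± 17.5 CPM, against 937 ± 58.8 CPM at day 0 (SD, n = 3 each), a difference that did not pass (-0.27, SE 0.30, edgeR adjusted p = 0.445). It passed with only the libraries of these 2 days in the fit (-0.26, adjusted p = 0.0131 in edgeR).

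GYG1, the primer of the glycogen particle (chr3:148991408-149031775, plus strand), was low up to day 7 and was highest at day 28. Its libraries had 35.1, 37.3 and 36.3 CPM at day 0, 37.2, 33.0 and 33.2 CPM at day 1, 18.5, 16.4 and 17.6 CPM at day 3, and 43.9, 35.3 and 23.6 CPM at day 5. Later libraries had 48.3, 47.7 and 48.6 CPM at day 7, 177 and 146 CPM at day 10, 57.1, 122 and 79.1 CPM at day 14, and 214, 224 and 216 CPM at day 28. Every library of day 28 lay above every library of the other days, and the libraries of day 14 lay between those of days 7 and 10. GYG1 fell at day 3 against day 1 by 0.98 on the log2 scale (SE 0.25, edgeR adjusted p = 0.00291). It rose at day 5 against day 3 by 0.98 (adjusted p = 0.00599 in edgeR, 0.0540 without day 5 replicate 1, 0.0594 with no filter and 0.252 with only the libraries of the 2 days), at day 10 against day 7 by 1.75 (SE 0.27, edgeR adjusted p = 0.000226) and at day 28 against day 14 by 1.34 (SE 0.24, edgeR adjusted p = 0.000271). The difference at day 14 against day 10 was -0.91 and missed the threshold (edgeR adjusted p = 0.0533); it passed without day 14 replicate 2 (-1.30, adjusted p = 0.00769) and in DESeq2 (adjusted p = 0.00519) or with RLE scaling (adjusted p = 0.0472). HLTF lies on the opposite strand and its exons cover 21.8% of the exonic bases of GYG1, and the strand setting of the counting is not stated, so the level of GYG1 is less certain than those of the other 8 genes. HLTF itself averaged 143 ± 18.0 CPM at day 0, 73.0 ± 4.27 CPM at day 7 and 230.1 ± 31.7 CPM at day 28 (SD, n = 3 each), and its part in the GYG1 values was not tested.

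Within the glycogenin pair, the mean share of GYG1 was above that of GYG2, the form known from liver, from day 10 on. Per exon length GYG1 made up 21.6 ± 0.59% of GYG1 plus GYG2 on day 0, 17.8 ± 5.7% on day 5, 33.2 ± 1.0% on day 7, 62.6 ± 5.5% on day 10 (n = 2), 53.2 ± 9.4% on day 14 and 76.4 ± 0.67% on day 28 (SD, n = 3 on the other days). The lowest day 14 library had GYG1 at 45.8%. The limit that HLTF sets on the level of GYG1 holds for these shares too. They are a description and were not tested.

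GYS1, the synthase (chr19:48968130-48993310, minus strand), changed the least of the synthetic enzymes that rose by day 28. Its libraries had 43.9, 39.3 and 46.6 CPM at day 0, 85.2, 60.2 and 84.3 CPM at day 1, 41.9, 73.5 and 76.9 CPM at day 3, and 66.9, 50.0 and 167 CPM at day 5. They had 116, 112 and 120.0 CPM at day 7, 132 and 171 CPM at day 10, 130.1, 106 and 93.4 CPM at day 14, and 162, 173 and 148 CPM at day 28. Day 5 replicate 3, the shallowest library, stood far above the other libraries of its day, and in the order of days only days 10 and 7 were neighbours whose libraries did not overlap. At day 28 GYS1 was higher than at day 0 by 1.90 on the log2 scale (SE 0.32, 3.72-fold, edgeR adjusted p = 1.63e-05). It also rose at day 1 against day 0 (0.82, SE 0.31, edgeR adjusted p = 0.0476), but this call was lost without any 1 of the 3 day 0 libraries and without day 1 replicate 1 or replicate 3 (adjusted p of 0.0667 to 0.121), in DESeq2 (adjusted p = 0.0504), with RLE scaling (0.0570) and with library totals only (0.0750). No other step between consecutive days passed with all libraries. Without day 5 replicate 3 the gene rose at day 7 against day 5 (0.99, edgeR adjusted p = 0.00801), and without day 5 replicate 2 at day 5 against day 3 (0.71, adjusted p = 0.0432). GYS2, the liver-type synthase, was below the filter, and GYS1 made up at least 98.9% of the summed synthase level per exon length in every library.

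GBE1, the branching enzyme (chr3:81489703-81761645, minus strand), had the largest rise of the synthetic enzymes. It had 20.9, 21.5 and 25.7 CPM at day 0, 20.1, 39.3 and 22.1 CPM at day 1, 20.1, 14.4 and 22.7 CPM at day 3 and 12.0, 32.2 and 15.1 CPM at day 5, levels that overlapped. It had 41.6, 46.5 and 47.3 CPM at day 7, 146 and 90.9 CPM at day 10, 68.3, 103 and 66.0 CPM at day 14, and 322, 291 and 249 CPM at day 28. The libraries of day 28 lay above all others. At day 28 GBE1 was higher than at day 0 by 3.66 on the log2 scale (SE 0.34, 12.6-fold, edgeR adjusted p = 1.21e-09) and higher than at day 14 by 1.86 (SE 0.32, edgeR adjusted p = 0.000135). It rose at day 7 against day 5 by 1.17 (edgeR adjusted p = 0.0180, which was 0.113 without day 5 replicate 1 and 0.145 with only the libraries of the 2 days). It rose at day 10 against day 7 by 1.39 (edgeR adjusted p = 0.0129), which was lost without any 1 of the 3 day 7 libraries (adjusted p of 0.0549 to 0.0660) or without day 10 replicate 1 (adjusted p = 0.345). Over the last step, in which both GYG1 and GBE1 rose, the summed level of 7 fibroblast markers was 3410 to 3943 CPM at day 28, against 478 to 890.0 CPM at day 14, and that of the cardiomyocyte markers was 31415 to 44569 CPM, against 23066 to 24176 CPM. At day 5 the fibroblast sum was 2261 to 3204 CPM and the cardiomyocyte sum 1703 to 2994 CPM. GYG1 had 23.6 to 43.9 CPM and GBE1 12.0 to 32.2 CPM on that day. The part of either cell type in the GYG1 and GBE1 values was not tested.

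The 3 phosphorylases followed different courses. PYGM (chr11:64746389-64759974, minus strand) had 13.8, 13.4 and 17.4 CPM at day 0, 3.86, 3.95 and 4.75 CPM at day 1, 2.98, 3.81 and 3.11 CPM at day 3, and 20.7, 15.3 and 36.8 CPM at day 5. It then had 195, 208 and 228 CPM at day 7, 267 and 251 CPM at day 10, 306, 198 and 210.4 CPM at day 14, and 113, 122 and 68.6 CPM at day 28. The libraries of days 7, 10 and 14 overlapped as neighbours in the order, and all of them lay above those of day 28, which lay above those of days 0 to 5. PYGM fell at day 1 against day 0 (-1.83, SE 0.29, edgeR adjusted p = 4.89e-05), rose at day 5 against day 3 (2.85, SE 0.31, edgeR adjusted p = 1.57e-07) and at day 7 against day 5 (3.14, SE 0.30, edgeR adjusted p = 3.97e-08), and fell at day 28 against day 14 (-1.23, SE 0.27, edgeR adjusted p = 0.00219). At day 28 it was still 6.81-fold higher than at day 0 (edgeR adjusted p = 8.85e-09). The 4 calls between consecutive days held without each library in turn. Set against TNNT2, the cardiac troponin T gene, which was chosen for this after the values were seen, PYGM per kilobase came to 7.28 ± 1.65 per 100 of TNNT2 on day 5, 17.6 ± 1.49 on day 7, 15.3 ± 0.560 on day 10, 15.1 ± 1.95 on day 14 and 4.02 ± 0.846 on day 28 (SD, n = 3, and n = 2 at day 10). On this scale the means of GYS1, UGP2, PYGL, PHKA1 and PPP1R3A, none of which was called lower at day 28 against day 14, were also lower at day 28 than at day 14 (for PHKA1 0.938 and 1.75). The summed level of 12 skeletal muscle markers was 10.1 to 17.9 CPM at day 5 and 35.2 to 40.4 CPM at day 7. It was 53.7 to 58.5 CPM at day 10, 49.2 to 88.7 CPM at day 14 and 2.88 to 10.1 CPM at day 28. At most 1 of the 12 reached 10 CPM on these days. At 0 counts were MYOD1 at day 7, MYOD1 and MYF6 at day 10, MYOD1, MYF5 and MYF6 at day 14, and MYF5 at day 28. The rest of the 12 had counts on these days, and 1 of them reached 10 CPM on days 7, 10 and 14. The part of skeletal muscle cells in the PYGM values was not tested.

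PYGL, the liver isozyme (chr14:50857891-50944483, minus strand), had 2 high phases. Its libraries had 45.1, 44.3 and 46.0 CPM at day 0, 139, 136 and 116 CPM at day 1, 44.4, 28.6 and 52.9 CPM at day 3, and 38.8, 31.3 and 11.2 CPM at day 5. They had 83.0, 90.2 and 92.5 CPM at day 7, 131 and 101 CPM at day 10, 91.4, 100.1 and 109.5 CPM at day 14, and 178, 177 and 122 CPM at day 28. Day 1 and the days from day 7 on stood above days 0, 3 and 5 without overlap. PYGL rose at day 1 against day 0 (1.53, SE 0.30, edgeR adjusted p = 0.000460), fell at day 3 against day 1 (-1.64, SE 0.30, edgeR adjusted p = 0.000136) and rose at day 7 against day 5 (1.69, SE 0.30, edgeR adjusted p = 0.000430). At day 28 it was 3.52-fold higher than at day 0 (edgeR adjusted p = 1.16e-05). The difference at day 5 against day 3 (-0.61) did not pass with all libraries (edgeR adjusted p = 0.179) and passed without day 5 replicate 2 (-0.82, adjusted p = 0.0473). The summed level of 12 liver and endoderm markers was 37.3 to 49.5 CPM on day 1 and 652 to 1087 CPM on day 28. It was highest on day 14, where it was 1495 CPM in replicate 1, 6035 CPM in replicate 2 and 7737 CPM in replicate 3, and PYGL in those libraries was 91.4, 100.1 and 109.5 CPM.

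PYGB, the brain isozyme (chr20:25248085-25298012, plus strand), was the most abundant phosphorylase at both ends of the course. Its libraries had 113, 111 and 121 CPM at day 0, 158, 111 and 169 CPM at day 1, 68.2, 113 and 97.3 CPM at day 3, and 179, 102 and 277 CPM at day 5. They had 203, 192 and 215 CPM at day 7, 416 and 457 CPM at day 10, 369, 478 and 386 CPM at day 14, and 783, 829 and 681 CPM at day 28. The libraries overlapped between neighbours from day 7 down, days 10 and 14 formed a second level, and day 28 lay above all. At day 28 PYGB was 6.65-fold higher than at day 0 (log2 change 2.73, SE 0.29, edgeR adjusted p = 9.54e-09). The single steps were less certain: the rise at day 10 against day 7 (1.10, edgeR adjusted p = 0.0225) was lost without any 1 of the 5 libraries compared (adjusted p of 0.0761 to 0.117), and the rise at day 28 against day 14 (0.89, edgeR adjusted p = 0.0245) without day 14 replicate 1, day 14 replicate 3 or day 28 replicate 2 (0.0564 to 0.0791) and with library totals only (0.0627). The rise at day 5 against day 3 (1.00, edgeR adjusted p = 0.0112), in which the libraries overlapped, was lost without day 5 replicate 3 (adjusted p = 0.102) or day 3 replicate 1 (0.0780), with no filter (0.0564) and with only the libraries of the 2 days (0.306). Without day 1 replicate 2 a fall at day 3 against day 1 was gained (-0.75, edgeR adjusted p = 0.0379). The summed level of 8 neural markers was 13.1 to 17.7 CPM at day 0 and 54.3 to 104 CPM at day 3. It was 7.67 to 9.08 CPM at day 14 and 17.7 to 21.0 CPM at day 28. The part of neural cells in the PYGB values was not tested.

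As shares of the phosphorylase level, PYGB had the highest mean on days 0, 3, 5, 10, 14 and 28 whichever length was used. The order of the means on days 1 and 7 depended on the length. The shares below are per length of the union of annotated exons. Those per length of the longest annotated transcript are given where the order differs. At day 0 PYGB made up 66.3 ± 0.0397%, PYGL 25.5 ± 0.770% and PYGM 8.18 ± 0.808% of the sum (SD, n = 3). PYGL reached 46.4 ± 7.03% at day 1, where PYGB was 52.2 ± 7.02%, and in 1 of the 3 day 1 libraries PYGL was the larger. By longest transcript PYGL was the larger in all 3 day 1 libraries, at 56.0 ± 6.90%, with PYGB at 42.2 ± 6.82%. PYGM reached 41.0 ± 1.16% at day 7, where PYGB was 41.4 ± 1.58%. There PYGB was the larger in replicate 1 (43.1%, against 39.6% for PYGM). PYGM was the larger in replicate 2 (41.5%, against 40.0%) and replicate 3 (41.7%, against 41.0%). By longest transcript PYGM was above PYGB in all 3 day 7 libraries, at 47.5 ± 1.08%, with PYGB at 32.0 ± 1.42%. Per exon length PYGM was 31.1 ± 1.19% at day 10 (n = 2), 30.9 ± 7.31% at day 14 and 9.40 ± 1.58% at day 28. PYGB was 75.4 ± 2.83% at day 28. The summed level was 38.9 ± 1.88 CPM per kb on day 0, 30.8 ± 4.47 on day 3, 110.2 ± 6.50 on day 7, 179 ± 0.504 on day 10, 165 ± 8.40 on day 14 and 228 ± 29.9 CPM per kb on day 28 (SD, n = 3, and n = 2 at day 10).

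**Figure D2:**
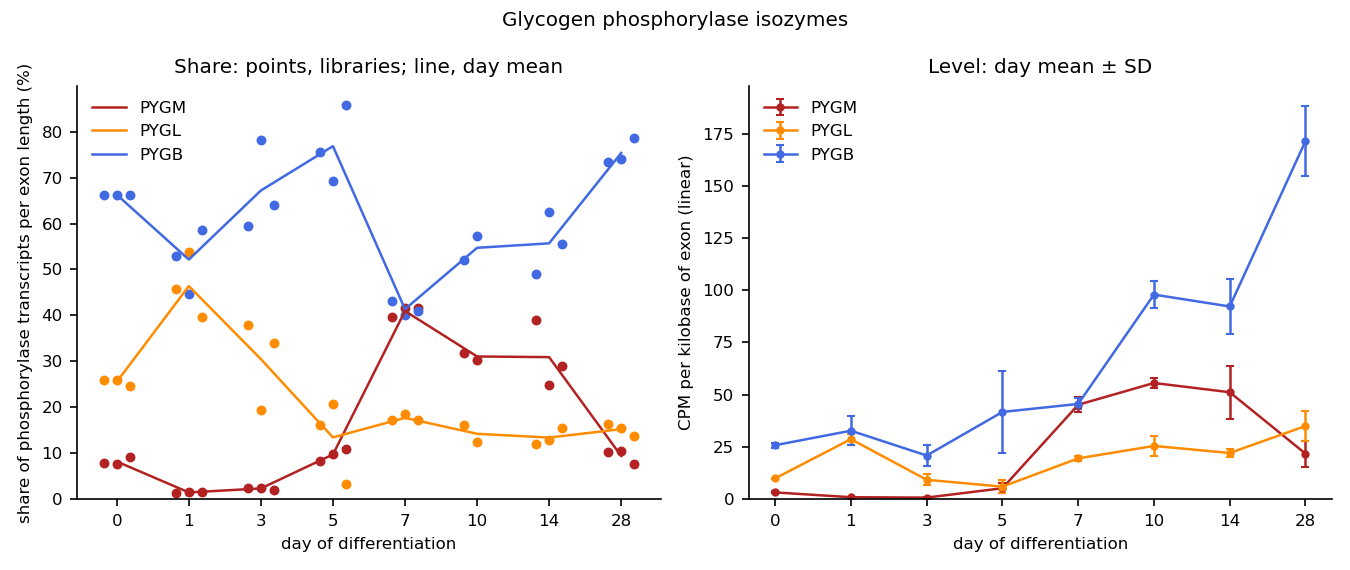
Left, share of each phosphorylase isozyme in the summed level per exon length (y axis, percent) by day, with points for libraries and lines through day means; right, level of each isozyme in CPM per kilobase of exon (linear y axis), day mean ± SD. Per exon length PYGM and PYGB are at 41.0% and 41.4% at day 7 and at 9.40% and 75.4% at day 28.

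No difference in isozyme shares between the cardiomyocyte days as a whole and the progenitor days passed the test. PYGM made up 22.9 ± 11.9% over the 8 libraries of days 10, 14 and 28 and 25.3 ± 17.1% over the 6 libraries of days 5 and 7, PYGL 14.3 ± 1.77% and 15.6 ± 6.17%, and PYGB 62.8 ± 11.2% and 59.1 ± 20.2% (SD; two-sided exact permutation test over 3003 arrangements, p = 0.762, 0.646 and 0.656, each 0.762 adjusted over the 3 isozymes). Both stages held days with high and with low shares, so these means cover the changes between days. The PYGL share rested on 1 library: day 5 replicate 3 had 3.39%, against 16.1 to 20.8% in the other 5 progenitor libraries. Without it the share was 3.70 percentage points lower on the cardiomyocyte days (exact permutation test, adjusted p = 0.014). That library was picked out by its value in this same share. The test also exchanges libraries between days, so no difference between the stages is read from this p. At day 28 the PYGL share was 15.2 ± 1.31%, against 25.5 ± 0.770% at day 0, and the PYGB share was 75.4 ± 2.83%, against 66.3 ± 0.0397% (SD, n = 3 each). The libraries did not overlap in either, and both gave p = 0.1, the smallest p that an exact permutation test of 3 against 3 can give (0.15 adjusted over the 3 isozymes). The PYGM share was 9.40 ± 1.58% at day 28 and 8.18 ± 0.808% at day 0 (exact permutation test, p = 0.4). None of the 50-base windows of one phosphorylase's transcripts occurs in another, so reads of this length are not shared among the isozymes.

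PHKA1, the muscle-type alpha subunit of phosphorylase kinase (chrX:72578814-72714319, minus strand), was low on every day and moved up and down. Its libraries had 15.8, 16.9 and 15.8 CPM at day 0, 25.7, 26.3 and 24.7 CPM at day 1, 11.8, 8.48 and 13.5 CPM at day 3, and 29.9, 26.2 and 14.4 CPM at day 5. They had 13.1, 14.2 and 12.8 CPM at day 7, 23.3 and 14.5 CPM at day 10, 43.3, 35.2 and 33.9 CPM at day 14, and 32.8, 35.6 and 27.4 CPM at day 28. Days 14 and 28 overlapped with each other and lay apart from day 1, the next in the order of mean levels. Day 28 also overlapped with day 5, at 27.4 CPM in day 28 replicate 3 and 29.9 CPM in day 5 replicate 1. PHKA1 fell at day 3 against day 1 (-1.19, SE 0.25, edgeR adjusted p = 0.000537), rose at day 5 against day 3 (1.08, SE 0.25, edgeR adjusted p = 0.00272, which was 0.208 with only the libraries of the 2 days) and was 1.98-fold higher at day 28 than at day 0 (edgeR adjusted p = 0.00116). Its other 3 calls between consecutive days were each lost without any 1 of the libraries compared, with the exception of day 5 replicate 3 in the second: the rise at day 1 against day 0 (0.66, edgeR adjusted p = 0.0397; 0.0516 to 0.0975 without a library), the fall at day 7 against day 5 (-0.83, adjusted p = 0.0345; 0.0831 to 0.169) and the rise at day 14 against day 10 (0.99, adjusted p = 0.0479; 0.0834 to 0.539). All 3 were also lost with no filter (adjusted p of 0.159, 0.146 and 0.124), and the second with library totals only (0.0999) and with only the libraries of the 2 days (0.349), the first with library totals only (0.0910). Of the 50-base windows of its transcripts, 6.55% also occur in the pseudogene PHKA1P1. Against PHKA2, the liver-type alpha subunit, PHKA1 made up 35.7 ± 2.3% of the pair per exon length on day 0, 26.1 ± 2.0% on day 7, 48.3 ± 4.2% on day 14 and 55.2 ± 2.4% on day 28 (SD, n = 3 each, not tested). By longest transcript it was the smaller of the pair on day 28 as well, at 42.5%.

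PPP1R3A, the muscle-type glycogen-targeting subunit of protein phosphatase 1 (chr7:113876777-114075920, minus strand), was near 0 up to day 3 and rose at day 5 and at day 7. It had 0, 0 and 3 counts in the libraries of day 0, 2, 2 and 1 counts at day 1, and 0 counts in all 3 libraries of day 3. At day 5 it had 13, 73 and 6 counts, which correspond to 1.56, 5.09 and 1.49 CPM. It had 31.0, 44.2 and 31.3 CPM at day 7, 143 and 63.7 CPM at day 10, 162, 188 and 219.9 CPM at day 14, and 168, 168 and 173 CPM at day 28. Libraries of days 5, 7, 10 and 14 formed separate, ascending levels, and those of day 28 lay within the range of day 14. Day 5 had 92 counts in all, 73 of them in replicate 2. Pooled over its libraries, day 5 was 52.1-fold above a floor of 3 counts over the 3 libraries of day 3 (edgeR adjusted p = 1.06e-06 for day 5 against day 3). The floor covers counting error at day 3 only, and the fold is lower for replicates 1 and 3 of day 5. The ratio at day 28 to day 0 was 3220, with a 95% interval of 1101 to 15619 that covers counting error alone, since day 0 had 3 counts in all (edgeR adjusted p = 3.26e-13). PPP1R3A rose further at day 7 against day 5 (3.56, SE 0.42, edgeR adjusted p = 2.21e-06). The rise at day 10 against day 7 (1.54, SE 0.39, edgeR adjusted p = 0.0154) was lost without day 10 replicate 1 (0.82, adjusted p = 0.506), day 7 replicate 1 (0.0786) or day 7 replicate 3 (0.0888). The difference at day 14 against day 10 (0.88, SE 0.40) did not pass (edgeR adjusted p = 0.226). Per 100 of TNNT2, both per kilobase, PPP1R3A came to 0.947 ± 0.859 on day 5, 2.97 ± 0.423 on day 7, 6.01 ± 2.85 on day 10, 12.4 ± 2.84 on day 14 and 6.91 ± 0.735 on day 28 (SD, n = 3, and n = 2 at day 10).

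The 7 glycogen-targeting subunits of protein phosphatase 1 changed places over the course. PPP1R3B, known from liver, made up 62.2 ± 2.4% of their summed level per exon length at day 0 and 79.2 ± 5.6% at day 1, then 13.9 ± 2.3% at day 7 and 20.6 ± 0.40% at day 28. PPP1R3C, which is broadly expressed, made up 12.3 ± 0.70% at day 0, 37.3 ± 1.6% at day 7 and 46.9 ± 4.3% at day 28. PPP1R3A came to 0.0733 ± 0.13% on day 0, 2.36 ± 1.4% on day 5, 19.5 ± 2.7% on day 7, 27.6 ± 5.4% on day 14 and 24.1 ± 3.7% on day 28 (SD, n = 3). PPP1R3C and not PPP1R3A was the most abundant of the 7 from day 5 on by mean share.

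**Figure D3:**
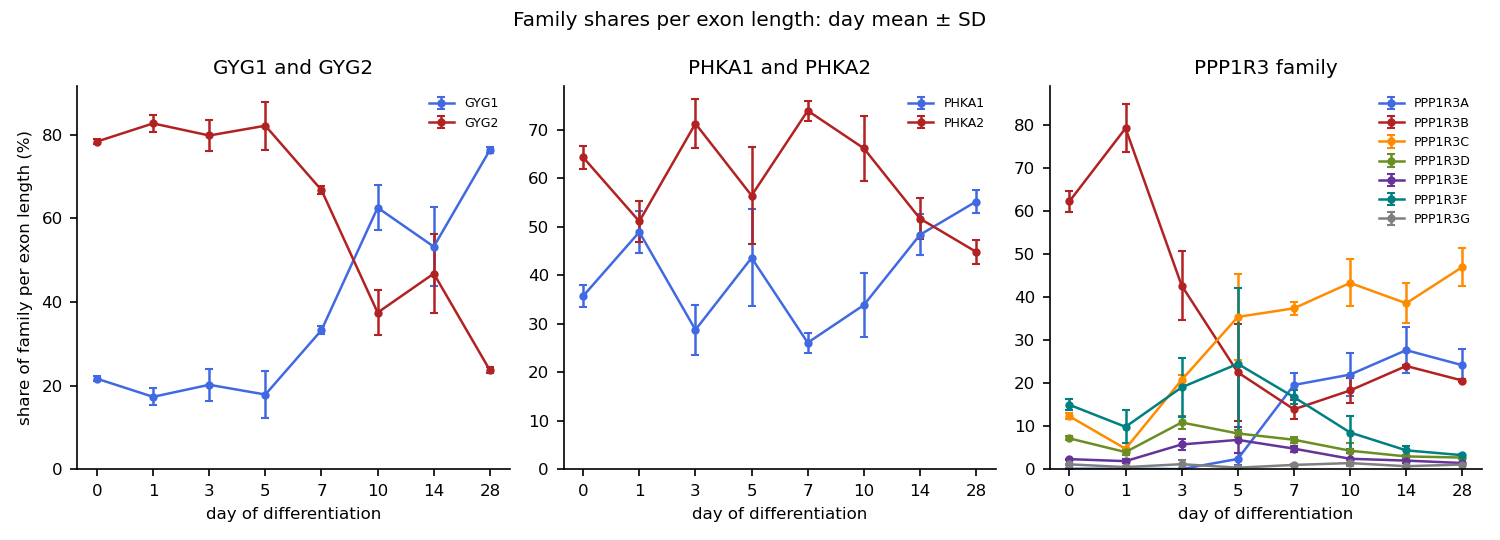
Share of each gene in its family's summed level per exon length (y axes, percent; day mean ± SD) by day, for the glycogenins, the phosphorylase kinase alpha subunits and the 7 PPP1R3 targeting subunits. GYG1 is at 21.6% at day 0 and 76.4% at day 28, and PPP1R3B is highest at day 1 (79.2%) and lies below PPP1R3C and PPP1R3A by mean share from day 7 on.

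The 250 bases before the RefSeq start sites (GRCh38.p14, strand of the gene) are shown for the gene that was near 0 at the start and for the 2 phosphorylases that were present throughout, because they differ in base composition. Of the 9 genes, 8 were matched in the RefSeq table. PYGM was the gene not matched, so its promoter was not searched. The capitals in the PPP1R3A sequence mark the only match to the binding motif of MEF2, a factor of muscle genes, and the other 2 sequences hold none.
PPP1R3A, chr7:113919010-113919259, minus strand: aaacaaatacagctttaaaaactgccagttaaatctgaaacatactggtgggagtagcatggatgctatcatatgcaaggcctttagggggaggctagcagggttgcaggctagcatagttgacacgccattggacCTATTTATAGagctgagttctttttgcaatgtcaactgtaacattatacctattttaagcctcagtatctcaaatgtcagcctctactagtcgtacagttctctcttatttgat
PYGB, chr20:25247835-25248084, plus strand: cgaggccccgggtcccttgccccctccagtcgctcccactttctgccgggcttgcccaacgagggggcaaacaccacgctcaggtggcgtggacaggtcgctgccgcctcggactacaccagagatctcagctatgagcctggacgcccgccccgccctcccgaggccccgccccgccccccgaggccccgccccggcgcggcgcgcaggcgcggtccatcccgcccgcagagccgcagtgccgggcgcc
PYGL, chr14:50944484-50944733, minus strand: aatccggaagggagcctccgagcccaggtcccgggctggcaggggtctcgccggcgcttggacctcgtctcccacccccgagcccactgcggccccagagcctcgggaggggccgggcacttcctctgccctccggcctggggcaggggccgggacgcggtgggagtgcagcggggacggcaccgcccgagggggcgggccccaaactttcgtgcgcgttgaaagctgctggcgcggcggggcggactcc
The GC content of the PPP1R3A window was 40.4%, against 76.4% for PYGB and 76% for PYGL and a median of 58% over 34786 distinct RefSeq promoters of the same length. The other matched genes lay between 54.4% (PHKA1) and 77.2% (GYG1). The MEF2 motif, searched by name on both strands, was found in 2.82% of all promoters and at positions -114 to -105 of PPP1R3A, and in none of the other windows matched. GGGCGG, the GC box, was found on either strand 6 times in PYGB, 3 times in PYGL and not in PPP1R3A, and 42.6% of all promoters hold it. Such matches describe the letters of the windows, and no binding was measured. The PPP1R3A window precedes the RefSeq start but lies within the GENCODE span of the gene, which begins at 114075920 on this strand. The bases before that GENCODE start were not searched.

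Step by step, 6 of the 9 genes rose at day 5 against day 3 (PPP1R3A, PYGM, PHKA1, GYG1, UGP2 and PYGB) and none fell, where 16.6% of all genes were called, 10.3% higher and 6.33% lower. Fitted to the libraries of those 2 days alone, 2 were called (PPP1R3A and PYGM), and with no filter 4. At day 1 against day 0, 3 rose (PYGL, GYS1 and PHKA1) and 2 fell (UGP2 and PYGM), where 31.8% of all genes were called, 15.3% higher and 16.5% lower. At day 3 against day 1 none rose and 4 fell (UGP2, PYGL, PHKA1 and GYG1), where 37.2% of all genes were called, 18.2% higher and 19.0% lower. At day 7 against day 5, 4 rose (PPP1R3A, PYGM, PYGL and GBE1) and PHKA1 fell, where 10.3% of all genes were called, 5.32% higher and 5.02% lower. At day 10 against day 7, 5 rose (GYG1, PPP1R3A, GBE1, UGP2 and PYGB) and none fell, where 7.67% of all genes were called, 4.17% higher and 3.50% lower. That count rested on single libraries: it was 1 (GYG1) without day 10 replicate 1, day 7 replicate 1 or day 7 replicate 3, and 3 without day 7 replicate 2. PHKA1 was the only one called at day 14 against day 10, where 3.74% of all genes were called, 1.64% higher and 2.11% lower. At day 28 against day 14, 3 rose (GBE1, GYG1 and PYGB) and PYGM fell, where 15.7% of all genes were called, 7.96% higher and 7.78% lower. At day 14 against day 10 none was called lower. There GYG1 was lower at an unadjusted p under 0.05 in edgeR and called lower in DESeq2 after adjustment. The other counts of 0 were also 0 at an unadjusted p under 0.05 in edgeR, and 0 in DESeq2 after adjustment. Fitted to the libraries of those 2 days alone, the comparison of day 28 against day 14 gave more calls: GYS1, UGP2 and PYGL were called higher as well (edgeR adjusted p of 0.00715, 0.00773 and 0.0111). All 9 varied over the 8 days (edgeR adjusted p of 0.000134 or below), as did 88.4% of all genes.

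**Figure D4:**
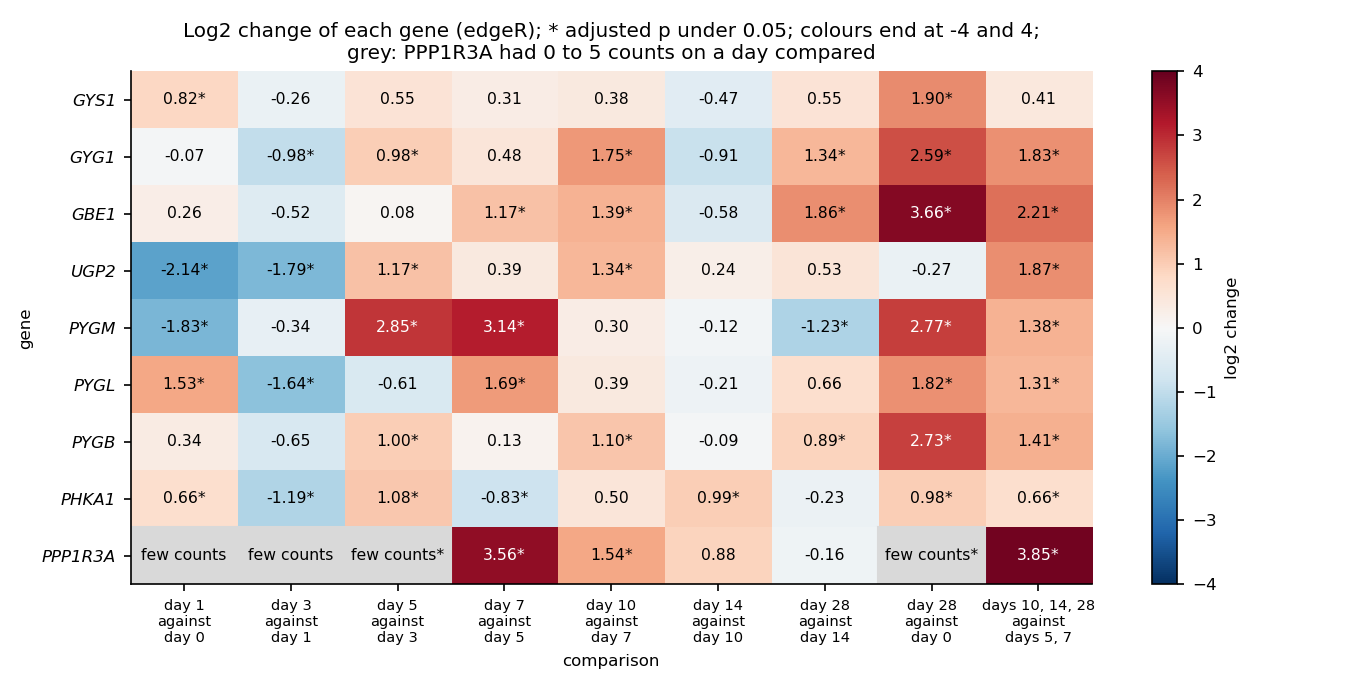
Log2 change of each gene (rows) in 9 comparisons (columns), later day against earlier day; colours run from blue (lower) to red (higher), and stars mark an adjusted p under 0.05 in edgeR. Grey cells are PPP1R3A in comparisons with a day of 0 to 5 counts, for which no log2 change is printed. The day 28 against day 0 column holds 8 stars, and the step from day 10 to day 14 holds 1.

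Across the labelled stages, 8 of the 9 genes rose on the cardiomyocyte days against the progenitor days and none fell (also 0 at an unadjusted p under 0.05 in edgeR, and 0 in DESeq2). In this comparison 57.6% of all genes were called, 28.7% higher and 28.9% lower, and the median log2 change of the 9 genes was 1.41, against 0.00806 over all genes tested. GBE1 averaged 167 CPM on the cardiomyocyte days and 32.5 CPM on the progenitor days (8 and 6 libraries), a log2 change of 2.21 with the days weighted equally (SE 0.22, edgeR adjusted p = 9.63e-09). GYG1 (1.83), UGP2 (1.87), PYGB (1.41) and PPP1R3A (3.85) likewise had no overlap between the libraries of the stages. PYGM (1.38), PYGL (1.31) and PHKA1 (0.66) were called with libraries that overlapped. PYGM averaged 192 CPM on the cardiomyocyte days and 117 CPM on the progenitor days, which differed between themselves. Its day 5 libraries had 15.3 to 36.8 CPM and its day 7 libraries 195 to 228 CPM. All its day 28 libraries (68.6 to 122 CPM) lay below those of day 7, and PYGM at day 10 against day 7 did not pass (0.30, edgeR adjusted p = 0.576). GYS1 had 139 CPM on the cardiomyocyte days and 105 CPM on the progenitor days and did not pass (0.41, edgeR adjusted p = 0.0962), but it did without day 5 replicate 3 (0.75, adjusted p = 0.000316) and with no filter (0.49, adjusted p = 0.0377). PGM1, which feeds glucose 1-phosphate to UGP2, rose in both comparisons (0.58 between the stages and 1.53 at day 28 against day 0, edgeR adjusted p = 0.0125 and 6.61e-05).

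Of 34 other genes of glycogen metabolism, 31 were tested. At day 28 against day 0, 17 rose, 6 fell and 8 did not pass, with a median log2 change of 0.94. Of all genes, 32.1% were called higher and 28.4% lower there, with a median of 0.0868. Between the stages 20 rose, 8 fell and 3 did not pass, with a median of 0.84. Of all genes, 28.7% were called higher and 28.9% lower between the stages, with a median of 0.00806. STBD1, which tethers glycogen to membranes, had 11.2 CPM at day 28 and 0.776 CPM at day 0 (3.83, edgeR adjusted p = 4.45e-10). PPP1R3C had 186 CPM at day 28 and 5.10 CPM at day 0, the largest rise of the list (5.18, edgeR adjusted p = 5.76e-12).

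The AMP-activated kinase, an energy sensor that binds glycogen through its beta subunits, rose in 5 of its 6 tested subunits at day 28 against day 0, a comparison in which 32.1% of all genes were called higher. PRKAG2, a gamma subunit whose mutations are known to cause glycogen storage in the human heart, had 133 CPM at day 28 and 12.0 CPM at day 0 (3.46, edgeR adjusted p = 2.92e-11). PRKAA2, the catalytic subunit most abundant in muscle, had 214 CPM at day 28 and 14.6 CPM at day 0 (3.87, edgeR adjusted p = 3.83e-08). PRKAB1 did not pass (0.32, edgeR adjusted p = 0.194). Among the phosphatase catalytic subunits PPP1CB rose (2.03) while PPP1CA (-1.02) and PPP1CC (-1.37) fell, and of the synthase kinases GSK3B rose (0.91) while GSK3A fell (-0.92), all with adjusted p in edgeR of 0.00655 or below. EPM2A, the glycogen phosphatase laforin, rose (1.83, edgeR adjusted p = 1.56e-07). Of the glucose-6-phosphatase system, which releases free glucose, the widely expressed form G6PC3 (-1.05) and the transporter SLC37A4 (-0.94) fell at day 28 against day 0 (edgeR adjusted p = 0.00306 and 0.00375). G6PC1, the liver form, was below the filter and was not tested.

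**Figure D5:**
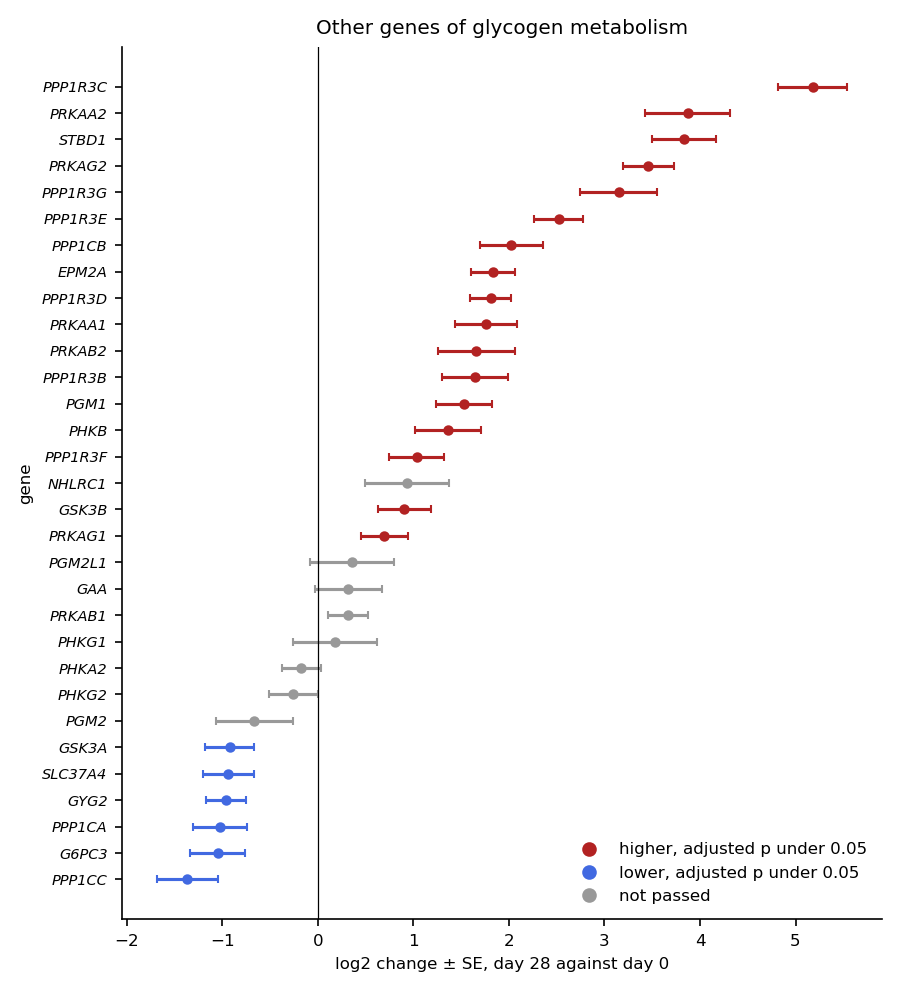
Log2 change ± SE at day 28 against day 0 (x axis) of the 31 other tested genes of glycogen metabolism (y axis, sorted); red and blue mark an adjusted p under 0.05 in edgeR and grey marks genes that did not pass. The range runs from PPP1CC at -1.37 to PPP1R3C at 5.18.

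Among themselves, the 9 genes fell into closer and looser company over the 8 day means of log2(CPM + 1), given here as Pearson correlations without a test, since the days share their libraries and their depth. GYG1, GBE1 and PYGB were the closest (0.96 for GYG1 with GBE1, 0.96 for GYG1 with PYGB and 0.96 for GBE1 with PYGB), and PYGM and PPP1R3A followed at 0.93. UGP2 and GYS1 were the least alike (0.17). Over 11665 protein-coding genes, the gene most like PPP1R3A was VCAM1 (0.998), that most like PYGM was REPS2 (0.981), that most like PYGL was SIK3 (0.982), and that most like PYGB was DUSP3 (0.992). That most like GBE1 was HBEGF (0.985), that most like GYG1 was NDUFB3 (0.980), that most like GYS1 was JUNB (0.989), that most like UGP2 was MAGI1 (0.975), and that most like PHKA1 was SMIM14 (0.894).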

How the data were processed

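Total RNA was made into stranded, ribosome-depleted libraries, and reads trimmed with Trim Galore 0.65 were aligned to GRCh38 with STAR 2.7.0 and counted per gene with HTSeq, per the submitters' processing notes and series text. The authors deposited these as raw counts, 1 column per library. The 44 copies of pseudoautosomal genes on Y (0 counts) were left out, leaving 57477 rows, of which 56387 matched GENCODE release 44 by identifier; the labels name release 38, and whether HTSeq counted by strand is not given in the sources used here.

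Days were compared with edgeR 4.0.16 (R 4.3.3) in 1 fit of all 23 libraries, with TMM scaling, a minimum count of 10 in filterByExpr and an adjusted p threshold of 0.05, checked on simulated counts. Leaving out libraries, other scalings, no filter, DESeq2 1.42.0, the compared libraries alone and a replicate block were tried. Same-numbered libraries of days 1 and 0 deviated together from their day means (r of 0.21, 0.61 and 0.39 over 10000 genes), so a block within these days was added after the data were seen. Shares were compared by exact permutation tests over libraries (scipy 1.17.1). Depth limits low genes most: intervals and floors (3 counts) cover counting error only. The genes named are the 9, a list of 34 others (a further gene of the planned list is not reported here) and, for each of the 9, its closest genes by correlation. Members, lists and tests were chosen with earlier results of these data known.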

Additional observations from a re-analysis of the deposited data

Results flagged for a closer look

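The share of PYGL in the phosphorylase level per exon length was 3.39% in day 5 replicate 3, against 16.1% to 20.8% in the other 5 libraries of the progenitor days. Its gap to the nearest library made up 0.730 of the range of the 6 libraries, above Dixon's critical value for 6 samples. Of 24 groups examined in this way this was the 1 that stood out, and chance gives about 1 in 20. This library had the lowest total, 4330334 counts, and within day 5 it also had the highest GYS1, PYGM and PYGB and the lowest GYG1 and PHKA1. The part of depth in this was not tested.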

How the results depend on the processing

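Counts of the 9 genes called moved by more than 1.5 times in few settings. With library totals only, day 1 against day 0 gave 3 calls. With only the libraries of the groups compared, day 5 against day 3 gave 2 calls, day 7 against day 5 gave 3 and day 28 against day 14 gave 7. At day 14 against day 10, RLE scaling and DESeq2 gave 2 calls each, and edgeR with no filter gave 0 (4 at an unadjusted p under 0.05: 2 higher and 2 lower). Without 1 library of the days compared at a time, the counts were 3 to 4 (day 1 against day 0), 4 to 5 (day 3 against day 1), 5 to 7 (day 5 against day 3), 3 to 6 (day 7 against day 5), 1 to 4 (day 10 against day 7), 0 to 1 (day 14 against day 10), 3 to 4 (day 28 against day 14), 8 (day 28 against day 0), 8 to 9 (the stages) and 9 (any difference). No gene changed direction in a call. Over all days 27 of 77 same-numbered pairs of libraries correlated above 0.1, with r from -0.82 to 0.89, and of the days compared with each other every pair did so for days 1 and 0 alone. With the replicate number as a block in the fit of all libraries, 8 of the 9 genes were called at day 28 against day 0, and no call of the 9 genes changed. A block within days 1 and 0 alone, added after the data were seen, gave 5 calls, 3 higher and 2 lower, and also changed none. Scaling by library totals moved the median log2 change of all genes by 0.230 (day 3 against day 1), 0.146 (day 7 against day 5), -0.176 (day 10 against day 7), -0.207 (day 28 against day 14), -0.118 (day 28 against day 0) and -0.133 (the stages). Between the stages, the difference in share ran from -5.85 to 0.818 percentage points for PYGM (reversed, at 0.404, 0.790 and 0.818, without each day 7 library), from -3.70 to -0.218 for PYGL and from -0.104 (without day 7 replicate 2) to 9.05 for PYGB. At day 28 against day 0 it ran from 0.691 to 2.13 for PYGM, from -10.9 to -9.59 for PYGL and from 7.46 to 10.0 for PYGB. The cause of these shifts was not tested. Depth limits PPP1R3A before day 5 most.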
